A study of Mus musculus with 96 samples.

Results

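Fos, Fosl2, Jun, Junb, Jund, Klf2, Klf4, Klf6, Klf7 and Klf10 encode transcription factors of the AP-1 and KLF families, and their levels were followed in mouse bone marrow-derived macrophages given 10 compounds before lipopolysaccharide (LPS). The 10 genes were chosen by name out of 23481 gene symbols in the count table. All 10 were among the 4963 genes with enough counts to be tested. The table holds 96 libraries made from transcript 3′ ends, 8 for each of 12 groups, with 4 wells of a group on each of 2 plates. All cells were grown with MCSF from marrow of wild-type male C57BL/6 mice aged 8 weeks. The 10 compound groups carry the labels Dexa, Torin, tBHQ, pGE2 and Baflo, then ZVAD, Caspase-1 and Halofuginone, and last BrefA and Tunicamycin. Each had its compound for 30 min, then LPS, and was lysed 4 h after LPS. The DMSO group had the vehicle and the same LPS exposure, and the NoStim group had no LPS and no stated vehicle. On both plates NoStim wells carry the letters A to D and all other wells E to H. In comparisons with NoStim, treatment and well letter therefore cannot be told apart. The sources used here give neither doses nor the full names behind the short labels, and every compound group had LPS. Nothing in the labels makes each well a culture of its own, so p-values measure the spread between wells, which may be technical.

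AP-1 is a family of dimers in which a Jun-type protein (Jun, Junb, Jund) pairs through a leucine zipper with itself or with a Fos-type protein (Fos, Fosl2), and the pair binds a short palindromic DNA site. The genes are typically induced within minutes of a stimulus through MAP kinase signalling, and the subunits differ in how strongly they activate. KLF proteins bind GC-rich and CACCC-type DNA through zinc fingers. In macrophages Klf2 and Klf4 are known for restraining inflammatory gene expression, and Klf6 for promoting it.

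Promoter letters are shown for the AP-1 gene most lowered by LPS (Fos), the gene most raised by Halofuginone (Jun), and the KLF genes with the largest changes in each direction with LPS (Klf4 and Klf7), with Klf6. RefSeq (GRCm38.p6) held a promoter window for 9 of the 10 genes. Each window printed is the 250 bases before the start annotated by RefSeq, 5′ to 3′ on the gene's strand. For Klf4, Klf6 and Klf7 that start is not the GENCODE start given with the gene below, and the Klf7 window lies inside the GENCODE gene. The windows are chr12:85473640-85473889 on the plus strand for Fos, chr4:95052223-95052472 on the minus strand for Jun, and chr4:55532476-55532725 on the minus strand for Klf4. Those of Klf6 and Klf7 are chr13:5861239-5861488 on the plus strand and chr1:64121390-64121639 on the minus strand. Capitals mark every match on either strand to 7 motifs. The AP-1 site was searched as TGANTCA. The cyclic AMP response element was searched as TGACGTCA, and its core as TGACG. The KLF box was searched as CCACCC and the GC box as GGGGCGGGG. The TATA box was searched as TATAAA and a variant AP-1 site as TGACATCA. The variant was added to the search after the windows had been read.
Fos: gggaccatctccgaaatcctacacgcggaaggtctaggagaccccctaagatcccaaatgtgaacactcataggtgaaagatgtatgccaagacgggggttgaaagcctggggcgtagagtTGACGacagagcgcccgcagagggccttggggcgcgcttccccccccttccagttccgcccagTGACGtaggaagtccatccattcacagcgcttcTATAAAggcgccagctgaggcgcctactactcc
Jun: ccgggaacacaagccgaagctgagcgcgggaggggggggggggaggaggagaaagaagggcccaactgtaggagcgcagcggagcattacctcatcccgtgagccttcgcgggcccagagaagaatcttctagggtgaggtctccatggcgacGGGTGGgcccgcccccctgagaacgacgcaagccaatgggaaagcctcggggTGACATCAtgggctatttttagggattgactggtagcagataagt
Klf4: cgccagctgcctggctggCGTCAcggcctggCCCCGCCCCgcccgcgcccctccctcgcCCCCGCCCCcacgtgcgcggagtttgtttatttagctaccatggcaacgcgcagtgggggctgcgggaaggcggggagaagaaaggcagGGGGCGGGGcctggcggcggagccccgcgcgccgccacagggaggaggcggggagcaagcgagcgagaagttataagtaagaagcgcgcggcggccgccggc
Klf6: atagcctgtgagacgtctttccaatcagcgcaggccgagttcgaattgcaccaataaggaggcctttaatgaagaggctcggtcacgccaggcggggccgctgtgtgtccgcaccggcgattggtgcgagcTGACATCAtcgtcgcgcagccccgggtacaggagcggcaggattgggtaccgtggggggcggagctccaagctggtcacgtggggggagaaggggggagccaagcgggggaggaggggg
Klf7: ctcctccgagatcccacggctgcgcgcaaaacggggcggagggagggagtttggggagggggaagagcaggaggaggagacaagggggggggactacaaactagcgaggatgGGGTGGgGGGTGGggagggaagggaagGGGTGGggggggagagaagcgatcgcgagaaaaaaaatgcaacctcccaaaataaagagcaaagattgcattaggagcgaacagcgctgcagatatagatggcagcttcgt
The Fos window held 2 copies of TGACG and a TATA box that begins 33 bases before the start. Jun and Klf6 were the only genes of the 9 whose window held TGACATCA. Klf4 had 3 GC boxes and 1 copy of TGACG, Klf7 had 3 KLF boxes, and Jun had 1 KLF box. TGANTCA and TGACGTCA were in none of the 9 windows. For Fosl2, Junb, Jund and Klf2, whose windows are not printed, the RefSeq start also differs from the GENCODE start. The Fosl2 window lies inside the GENCODE gene. That of Jund ends at 70697738, while the GENCODE gene starts at 70698949. Of all 32851 RefSeq windows of the same length, 6.75% held TGANTCA, 1.55% TGACGTCA, 17.8% TGACG, 28.1% CCACCC, 10.4% GGGGCGGGG, 12.4% TATAAA and 2.93% TGACATCA. Every TGACGTCA also contains TGACG. A match describes the letters only.

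Library totals ranged from 80196 to 379198 counts, with a median of 257984.5, and levels are given as CPM, counts scaled to a library total of 1e+06 with TMM factors. Halofuginone libraries were the shallowest, with 80196 to 136526 counts, against 201162 to 323049 in DMSO libraries. The ribosomal RNA precursor Rn45s took 44.7% ± 3.20 of the counts in Halofuginone wells, against 19.4% ± 4.64 in DMSO wells (SD, n = 8 each). One library, Tunicamycin plate 2 F, stood apart from its group, and the fold changes of Tunicamycin that passed the threshold are given with and without it, while orders of means and likeness between genes include it. All 9 macrophage markers in the table had counts, and their summed level had group medians of 1978 to 3980 CPM. Group medians of the summed markers were at most 13.7 CPM for neutrophils, 13.9 for T cells, 0 for B cells, 33.7 for dendritic cells, 3.74 for fibroblasts, 0 for erythroid cells and 19.4 for endothelial cells. Pax5, Cd3e, Cd3g, Elane, Mpo, Ltf, Cd209a, Pdgfra and the globin genes had 0 counts. In such bulk libraries a change in the cells that hold an mRNA and a change in mRNA per cell cannot be told apart, and CPM are shares of each library, not amounts per cell.

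Across the 11 comparisons the 10 genes gave 110 results, of which 43 passed an adjusted p of 0.05 in edgeR's quasi-likelihood test with Benjamini-Hochberg adjustment over all tested genes. With LPS (DMSO against NoStim) Junb, Klf6 and Klf7 rose and Fos, Klf2, Klf4 and Klf10 fell, 3 and 4 of 10 genes, where 19.5% of all tested genes rose and 16.6% fell. Every compound was then compared with the same 8 DMSO wells, so the compound comparisons share those wells. Halofuginone raised 8 genes and lowered 0, against 15.3% of all genes higher and 25% lower. By tBHQ 5 genes were raised and 2 lowered, where 17.3% and 19.1% of all genes were. Torin raised 6 and lowered 0 (9.61% and 7.11% of all genes). Dexa raised 3 and lowered 3 (1.95% and 1.61%), and so did pGE2 (5.2% and 5.98%). BrefA raised 1 and lowered 1 (8.08% and 9.25%), and Tunicamycin raised 1 and lowered 0 (2.8% and 1.57%). For the counts of 0 lowered genes with Halofuginone, Torin and Tunicamycin, edgeR also found 0 at an unadjusted p under 0.05, and DESeq2 found 0. Of the 43 calls, 27 were of groups whose 8 wells lay wholly apart and 16 of groups that overlapped. Of the uncalled results, 0 had groups that lay apart. Overlap was not counted over all tested genes, so these counts describe the 10 genes only.

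In Baflo, ZVAD and Caspase-1 wells edgeR called 0 of the 10 genes, and DESeq2 also called 0 in each. At an unadjusted p under 0.05 the counts were 0 for Baflo, 0 for ZVAD and 1 for Caspase-1, namely Jun. Of all tested genes, 0% were called with Baflo, 0% with ZVAD and 2.9% with Caspase-1. Among the 10 genes the log2 fold changes lay between -0.63 (Klf2) and 0.42 (Fos) with Baflo. They lay between -0.17 (Junb) and 0.53 (Klf10) with ZVAD. Jun with Caspase-1 had a log2 fold change of -0.86 ± 0.34 (adjusted p = 0.133), with 18.2, 21.7 and 47.9 CPM as lowest, median and highest well, against 29.3, 43.0 and 74.1 CPM in DMSO wells. These ranges overlapped. In a fit of the Caspase-1 and DMSO wells alone the same difference passed the threshold (-0.88, adjusted p = 0.0234).

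**Figure D1:**
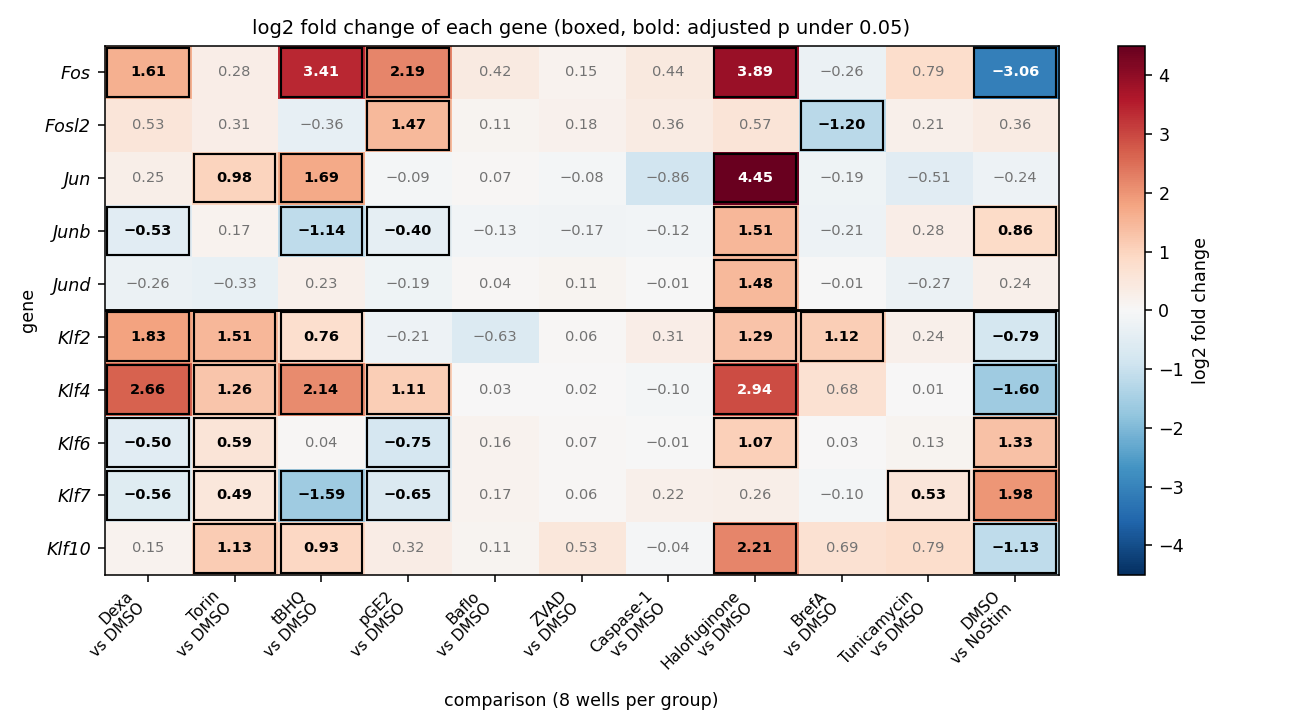
Log2 fold change (colour and number) of each of the 10 genes (vertical axis) in 11 comparisons of 8 wells against 8 wells (horizontal axis), with results at an adjusted p under 0.05 boxed and in bold. Halofuginone has 8 boxed rises and no boxed fall, and the columns of Baflo, ZVAD and Caspase-1 have no box.

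Fos encodes the founding Fos-type subunit (ENSMUSG00000021250.13, protein-coding, chromosome 12, 85473890 to 85477273 of mm10 in the GENCODE M21 annotation, the source of all positions of genes here). With LPS, Fos was at 16.8, 30.3 and 52.0 CPM in the lowest, median and highest DMSO well, against 175.8, 272 and 295 CPM in NoStim wells. The groups did not overlap, and the fall with LPS was the largest among the 10 genes (-3.06 ± 0.27, log2 ± SE, adjusted p = 3.47e-17). Halofuginone, tBHQ, pGE2 and Dexa raised Fos above that low DMSO level. In Halofuginone wells it was at 299, 471 and 608 CPM, a log2 fold change of 3.89 ± 0.29 against DMSO (adjusted p = 5.86e-21). In tBHQ wells it was at 256, 334 and 409 CPM (3.41 ± 0.27, adjusted p = 8.85e-20). In both groups every well lay far above every DMSO well.

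The other 2 rises of Fos were smaller, and neither overlapped the DMSO wells. Fos was at 95.99, 145.1 and 182 CPM in pGE2 wells (2.19 ± 0.29, adjusted p = 1.88e-09). It was at 63.7, 89.9 and 147 CPM in Dexa wells (1.61 ± 0.30, adjusted p = 7.76e-05). By mean level the order was Halofuginone, tBHQ, NoStim, pGE2, Dexa, Tunicamycin, Caspase-1, Baflo, Torin, ZVAD, DMSO and BrefA. The steps down to Dexa exceeded the spread of the groups, and from Dexa on no neighbour differed from the next beyond its spread. In Tunicamycin wells Fos was at 19.8, 28.6 and 269 CPM, and the highest value was that of plate 2 F. Without that well the remaining 7 ranged from 19.8 to 37.2 CPM. The fold change against DMSO was 0.79 ± 0.34 with it (adjusted p = 0.176) and -0.10 without it (adjusted p = 0.890).

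Fosl2, also called Fra-2, is a Fos-type subunit that lacks the strong activation domain of Fos (ENSMUSG00000029135.10, chromosome 5, 32135801 to 32157842). LPS alone gave no change past the threshold (0.36 ± 0.21, adjusted p = 0.176). Its level was 129, 156 and 237 CPM in pGE2 wells, against 47.7, 60.9 and 79.6 CPM in DMSO wells. The 2 ranges were apart, and the rise with pGE2 was 1.47 ± 0.18 (adjusted p = 2.80e-11). BrefA lowered Fosl2 to 10.6, 25.9 and 48.0 CPM, a log2 fold change of -1.20 ± 0.24 (adjusted p = 2.86e-05), with the highest BrefA well just above the lowest DMSO well. With Halofuginone it was at 43.9, 77.1 and 149 CPM and missed the threshold (0.57 ± 0.26, adjusted p = 0.0638). That result passed under 7 alternatives, among them DESeq2 (0.63, adjusted p = 0.0461), RLE scaling (0.62, adjusted p = 0.0461) and the fit without the H wells of plate 2 (0.67, adjusted p = 0.0356). It missed the threshold under the others, with an adjusted p of up to 0.696.

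In the order of Fosl2 means pGE2 stood first and BrefA last, with a ratio of 6.28 between them. The step from pGE2 to Dexa exceeded the spread, as did those from DMSO to tBHQ and from NoStim to BrefA. Dexa, Halofuginone, Caspase-1, Torin, Tunicamycin, ZVAD, Baflo and DMSO followed each other with no step beyond the spread, and neither did tBHQ and NoStim differ. Among the AP-1 genes Fosl2 was the one for which pGE2, not Halofuginone, gave the highest mean.

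Jun encodes c-Jun, the subunit that JNK phosphorylates (ENSMUSG00000052684.4, chromosome 4, 95049034 to 95052222). Jun was at 659, 1031 and 1856 CPM in Halofuginone wells, against 29.3, 43.0 and 74.1 CPM in DMSO wells. No Halofuginone well came near a DMSO well. This 21.9-fold difference was the largest of the 110 results (4.45 ± 0.26, adjusted p = 2.05e-27), and it rested on 43 to 119 counts per Halofuginone well and 7 to 20 per DMSO well. With tBHQ Jun was at 137, 157 and 186 CPM (1.69 ± 0.27, adjusted p = 1.60e-07), again above every DMSO well. With Torin it was at 48.5, 93.4 and 177 CPM (0.98 ± 0.30, adjusted p = 0.0116), and the lowest Torin wells lay within the DMSO range.

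LPS alone left Jun with no difference past the threshold, at 29.3 to 74.1 CPM in DMSO wells and 31.7 to 75.5 CPM in NoStim wells (-0.24 ± 0.30, adjusted p = 0.571). In the order of means Halofuginone, tBHQ and Torin came first, each separated from the next by more than the spread. Dexa, NoStim, Baflo, DMSO, ZVAD, pGE2, BrefA, Tunicamycin and Caspase-1 followed with no step beyond it. The highest mean was 41.2 times the lowest, the widest span of the 10 genes. In Tunicamycin wells Jun was at 7.93, 17.9 and 111 CPM, the last being plate 2 F. The difference from DMSO was -0.51 ± 0.34 (adjusted p = 0.438) with that well and -0.94 without it (adjusted p = 0.0872). It passed the threshold when Tunicamycin plate 1 H and BrefA plate 2 H were left out as well (-1.28, adjusted p = 0.0337). Tunicamycin plate 1 H held the next highest Jun level after plate 2 F, 63.1 CPM, so leaving it out could only lower the group.

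Junb encodes a Jun-type subunit that binds near LPS-induced genes in macrophages (ENSMUSG00000052837.6, chromosome 8, 84974484 to 84978718). With LPS it was at 737, 880 and 1115 CPM in DMSO wells, against 326, 462 and 713 CPM in NoStim wells. The groups were apart (0.86 ± 0.11, adjusted p = 3.53e-11). Levels with tBHQ were 330, 383 and 589 CPM, below every DMSO well and within the NoStim range (-1.14 ± 0.11 against DMSO, adjusted p = 1.98e-16). Dexa wells held 550, 620 and 721 CPM, also below every DMSO well (-0.53 ± 0.11, adjusted p = 0.000403). With pGE2 the 531, 632 and 811 CPM overlapped the DMSO range (-0.40 ± 0.11, adjusted p = 0.00549), and the call was lost without the E wells of plate 1 (-0.34, adjusted p = 0.0521).

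Halofuginone was the only compound that raised Junb past the threshold, to 1806, 2250 and 4445 CPM (1.51 ± 0.11, adjusted p = 1.69e-24). Every Halofuginone well exceeded every DMSO well. In the order of means Halofuginone stood apart at the top, NoStim and tBHQ shared the bottom, and the step from Dexa to NoStim exceeded the spread. Between them Tunicamycin, Torin, DMSO, Caspase-1, Baflo, ZVAD, BrefA, pGE2 and Dexa had no step beyond it.

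Jund, the Jun-type gene that is usually the most evenly expressed across cell states (ENSMUSG00000071076.6, chromosome 8, 70698949 to 70700616), changed with Halofuginone alone among the 11 comparisons. Its level was 161, 211 and 276 CPM in Halofuginone wells, against 47.7, 80.1 and 96.3 CPM in DMSO wells. The ranges did not overlap (1.48 ± 0.21, adjusted p = 2.88e-09). The other 10 results for Jund lay between -0.33 (Torin) and 0.24 (LPS), none past the threshold. After Halofuginone no neighbour in its order differed from the next beyond the spread, and its highest mean was 3.50 times its lowest, the narrowest span of the 10 genes.

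**Figure D2:**
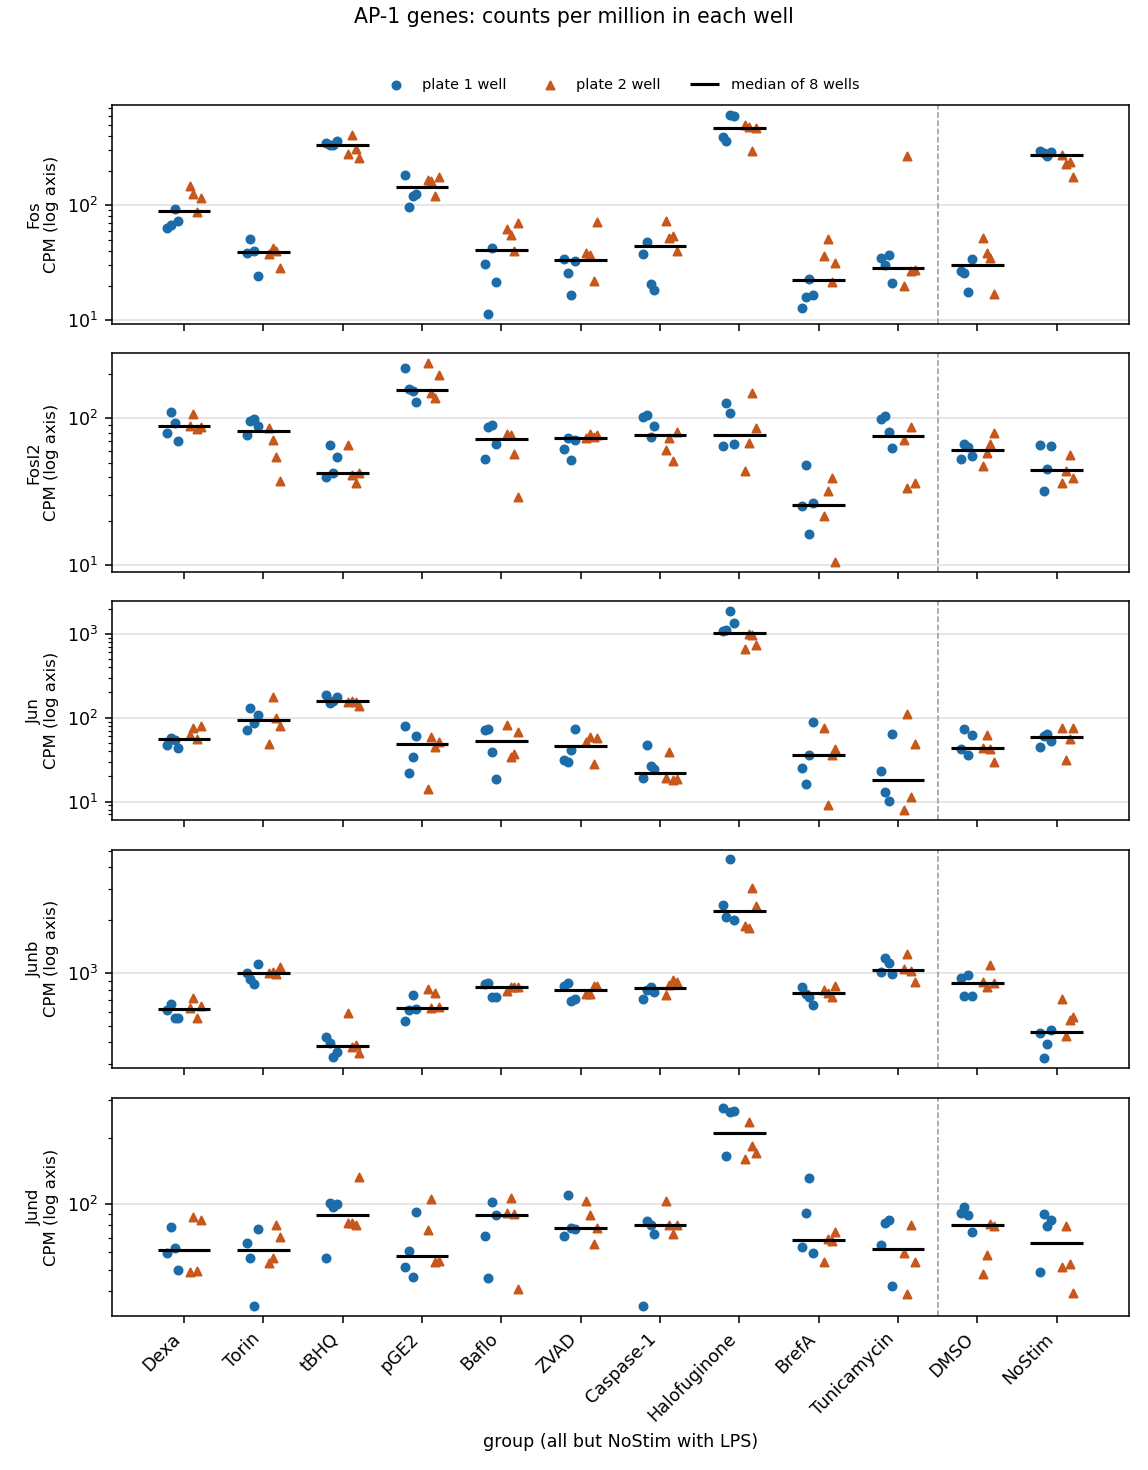
CPM of each AP-1 gene on a log axis (1 panel per gene) in every well of the 12 groups on the horizontal axis, with circles for plate 1, triangles for plate 2 and a bar for the median of 8 wells. The Jun wells with Halofuginone sit between 659 and 1856 CPM, above all other wells of that gene, and the Fos panel shows 1 Tunicamycin well at 269 CPM.

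Klf2, which keeps blood and vessel cells in a resting state, was among the rarer transcripts (ENSMUSG00000055148.7, chromosome 8, 72319033 to 72321656), with 1 to 38 counts per well. Klf2 was at 44.5, 80.0 and 110.7 CPM in Dexa wells, against 8.67, 18.1 and 47.9 CPM in DMSO wells (1.83 ± 0.28, adjusted p = 1.52e-07). Only 1 DMSO well, plate 1 E, lay above the lowest Dexa well. Torin gave 32.3, 62.2 and 99.3 CPM (1.51 ± 0.30, adjusted p = 2.72e-05), and BrefA gave 29.7, 50.2 and 64.0 CPM (1.12 ± 0.30, adjusted p = 0.00255). Both overlapped the DMSO range at its top. Klf2 was the one gene of the 10 that rose with BrefA.

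Other calls for Klf2 were lost when the wells of 1 letter on a plate were left out in all groups. The fall with LPS was -0.79 ± 0.30 (adjusted p = 0.0293), with 8.67 to 47.9 CPM in DMSO wells and 20.8 to 60.7 CPM in NoStim wells. It was lost when the G or H wells of plate 1 were left out (-0.63 and -0.73, adjusted p = 0.121 and 0.0676) or the E or G wells of plate 2 (-0.69 and -0.76, adjusted p = 0.0789 and 0.0632), in each case together with 1 NoStim well of that plate. The rise with tBHQ was 0.76 ± 0.31 (adjusted p = 0.0425), and leaving out the F or H wells of plate 1 or the E, G or H wells of plate 2 ended it, with values of 0.62 to 0.76 and adjusted p of 0.0692 to 0.129. A filter at 20 CPM (0.70, adjusted p = 0.0728) and the sum of same-named wells of both plates (0.69, adjusted p = 0.0769) ended it too, and neither plate alone passed (0.54 and 0.98, adjusted p = 0.441 and 0.0864). With Halofuginone Klf2 was at 12.8, 55.5 and 125 CPM from 1 to 8 counts per well (1.29 ± 0.39, adjusted p = 0.00470). It was lost without the G wells of plate 1 (adjusted p = 0.0509). With no filter on low counts the LPS, tBHQ and Halofuginone calls for Klf2 were lost as well (adjusted p = 0.107, 0.140 and 0.0733). No neighbours in the order of Klf2 means, from Dexa at the top to Baflo at the bottom, differed beyond the spread, although the highest mean was 5.47 times the lowest.

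Klf4 encodes a zinc finger factor known for roles in stem cells and in alternative activation of macrophages (ENSMUSG00000003032.8, chromosome 4, 55527143 to 55532466). With LPS it was at 7.08, 22.0 and 31.6 CPM in DMSO wells, against 47.4, 67.2 and 89.4 CPM in NoStim wells. The groups were apart (-1.60 ± 0.25, adjusted p = 2.10e-08). Halofuginone, Dexa, tBHQ, Torin and pGE2 raised Klf4, and for each all 8 wells lay above all DMSO wells. Halofuginone gave 114, 142 and 241 CPM (2.94 ± 0.27, adjusted p = 1.66e-18). Dexa gave 119, 137 and 166 CPM (2.66 ± 0.23, adjusted p = 2.94e-19). These 2 groups did not differ from each other beyond their spread.

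tBHQ wells held Klf4 at 65.9, 98.9 and 123 CPM (2.14 ± 0.24, adjusted p = 7.50e-14). Torin gave 34.1, 51.0 and 89.2 CPM (1.26 ± 0.27, adjusted p = 0.000177), and pGE2 gave 32.7, 46.7 and 69.8 CPM (1.11 ± 0.26, adjusted p = 0.000915). Both of these groups had lower medians than tBHQ wells and overlapped the NoStim range. In the order of means the steps from Dexa to tBHQ, from tBHQ to NoStim and from pGE2 to BrefA exceeded the spread, while the steps between NoStim, Torin and pGE2 did not. BrefA, Tunicamycin, Baflo, ZVAD, DMSO and Caspase-1 formed the low end with no step beyond the spread.

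Klf6, a factor that supports inflammatory gene expression in macrophages (ENSMUSG00000000078.7, chromosome 13, 5861482 to 5870394), was counted 107 to 520 times per well. With LPS, DMSO wells held 1082, 1187 and 1353 CPM, against 409, 468 and 557 CPM in NoStim wells (1.33 ± 0.10, adjusted p = 2.74e-24). Every DMSO well exceeded every NoStim well. Halofuginone gave 1823, 2302 and 3790 CPM (1.07 ± 0.10, adjusted p = 7.24e-18) and Torin 1613, 1851 and 1918 CPM (0.59 ± 0.10, adjusted p = 5.94e-07). Both groups lay wholly above the DMSO wells.

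Dexa and pGE2 lowered Klf6 below every DMSO well. With pGE2 it was at 595, 699 and 877 CPM (-0.75 ± 0.10, adjusted p = 5.22e-10), and with Dexa at 696, 778 and 1054 CPM (-0.50 ± 0.10, adjusted p = 0.000108). The Dexa call was lost on plate 2 alone (-0.29, adjusted p = 0.569). With tBHQ Klf6 was at 1059, 1230 and 1407 CPM, a log2 fold change of 0.04 ± 0.10 against DMSO (adjusted p = 0.773). Halofuginone and Torin headed the order and stood apart from each other and from Baflo. Tunicamycin, ZVAD, tBHQ, BrefA, DMSO and Caspase-1 came after Baflo with no step beyond the spread. The steps from Caspase-1 to Dexa and from pGE2 to NoStim exceeded the spread, and that from Dexa to pGE2 did not.

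Klf7 encodes a KLF factor studied mostly in neurons and fat cells (ENSMUSG00000025959.13, chromosome 1, 64029447 to 64122282). With LPS it was at 99.8, 158 and 197 CPM in DMSO wells, against 23.8, 37.4 and 56.4 CPM in NoStim wells. The groups were far apart (1.98 ± 0.18, adjusted p = 2.60e-19), and this was the largest rise with LPS among the 10 genes. tBHQ wells held 20.1, 50.4 and 68.7 CPM, below every DMSO well (-1.59 ± 0.18, adjusted p = 2.60e-14). With pGE2 it was at 73.7, 98.0 and 123 CPM (-0.65 ± 0.16, adjusted p = 0.00117), overlapping the DMSO range. Torin gave 151, 220 and 266 CPM, with overlap (0.49 ± 0.15, adjusted p = 0.0118).

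Smaller calls for Klf7 were less firm. With Dexa it was at 67.8, 93.3 and 142 CPM, within reach of the DMSO wells (-0.56 ± 0.16, adjusted p = 0.0173). That fall missed the threshold without the E, F or H wells of plate 1 or the F wells of plate 2 (-0.44 to -0.52, adjusted p = 0.0656 to 0.162), and with same-named wells summed (-0.58, adjusted p = 0.0560). Tunicamycin gave 149, 216 and 319 CPM (0.53 ± 0.15, adjusted p = 0.0188), and 0.59 without plate 2 F (adjusted p = 0.00763). With no filter on low counts the Dexa, Torin and Tunicamycin calls for Klf7 were lost (adjusted p = 0.0853, 0.0941 and 0.0850). The Tunicamycin rise was lost without the F, G or H wells of plate 1 or the E wells of plate 2 (0.44 to 0.51, adjusted p = 0.0742 to 0.121). With Halofuginone Klf7 was at 91.9, 179 and 256 CPM (0.26 ± 0.18, adjusted p = 0.270), which made it the only gene besides Fosl2 with no call for that compound. The order of means ran Tunicamycin, Torin, Halofuginone, Caspase-1, Baflo, ZVAD, DMSO and BrefA with no step beyond the spread. Dexa and pGE2 stood below these, and tBHQ and NoStim below those, each pair without a difference beyond its spread.

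Klf10, an early target of TGF-beta signalling (ENSMUSG00000037465.10, chromosome 15, 38291463 to 38300706), had 1 to 24 counts per well. With LPS it was at 3.71, 26.3 and 31.9 CPM in DMSO wells, against 30.3, 46.6 and 69.5 CPM in NoStim wells, with overlap at 1 end (-1.13 ± 0.29, adjusted p = 0.000680). Halofuginone gave 58.6, 112 and 136 CPM, above every DMSO well (2.21 ± 0.33, adjusted p = 7.68e-09). Torin gave 26.9, 40.0 and 96.5 CPM (1.13 ± 0.30, adjusted p = 0.00341). tBHQ gave 27.5, 38.5 and 68.2 CPM (0.93 ± 0.30, adjusted p = 0.00856). The last 2 groups overlapped the DMSO range, and the tBHQ call was lost without the F wells of plate 2 (0.65, adjusted p = 0.0836). After Halofuginone no neighbour in the order of Klf10 means differed from the next beyond the spread.

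**Figure D3:**
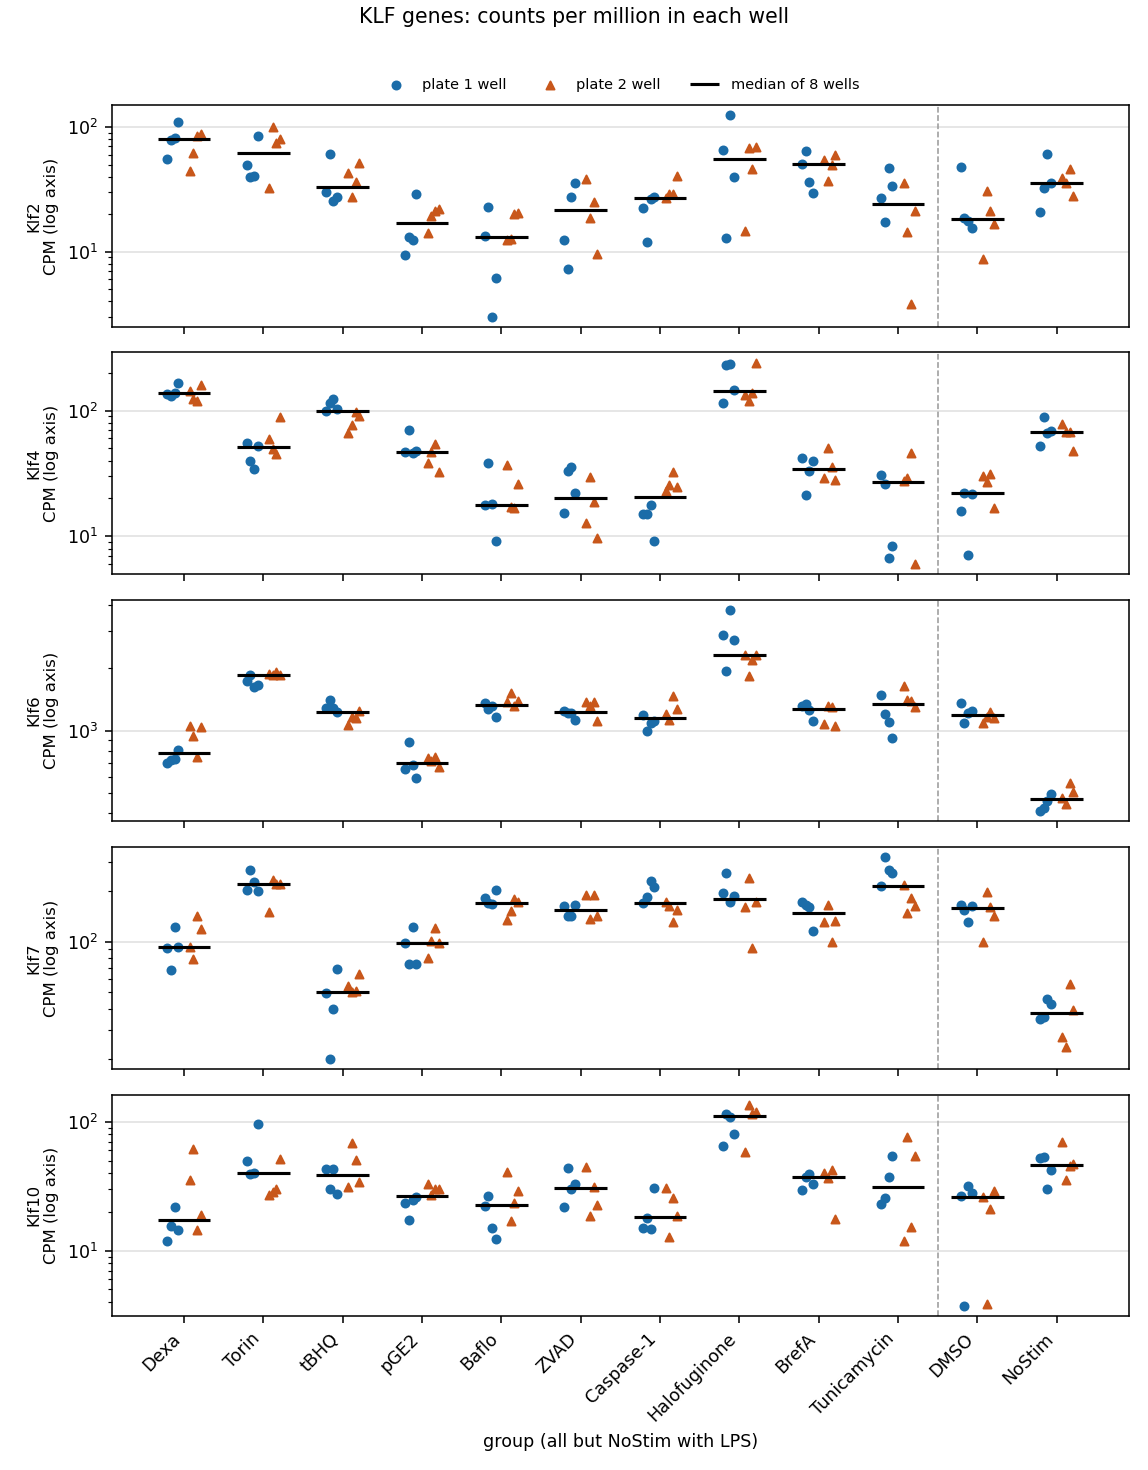
CPM of each KLF gene on a log axis (1 panel per gene) in every well of the 12 groups on the horizontal axis, with circles for plate 1, triangles for plate 2 and a bar for the median of 8 wells. Klf4 wells with Dexa and with Halofuginone sit between 114 and 241 CPM, above all DMSO wells, and Klf7 wells with tBHQ sit between 20.1 and 68.7 CPM, close to the NoStim wells.

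The Halofuginone rises came with the shallow libraries and the high Rn45s share given above, and the median log2 fold change of all tested genes in that comparison was -0.20, with 38% of all calls higher. In the fit of the 2 groups alone, which tested 1972 genes, that median was 0.02 and 51% of calls were higher. All 8 genes also passed with Rn45s and Lars2 left out before scaling, and all 8 passed with the Rn45s share as a covariate. In the covariate fit 211 genes were called higher and 607 lower, against 760 and 1240 in the main fit, with a median of -0.29. Mean Rn45s shares were 15.3% to 21.8% in the other groups, against 44.7% with Halofuginone. The covariate thus nearly follows that group, and the 2 cannot be told apart by this fit. The part of depth in these results was not tested. The pGE2 results came with a higher summed level of the 9 macrophage markers, 3552 to 4690 CPM in pGE2 wells, against 1992 to 2487 CPM in DMSO wells. Cd14, the LPS co-receptor, made up most of that difference, with a mean of 2286 CPM in pGE2 wells and 495 CPM in DMSO wells. Its part in the results was not tested.

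The levels reached with LPS and a compound were next set against cells that never saw LPS. With tBHQ only Jun (1.45 ± 0.26, adjusted p = 1.11e-05) and Klf6 (1.38 ± 0.10, adjusted p = 3.47e-24) differed from NoStim, both higher (edgeR called 0 lower, with 1 at an unadjusted p under 0.05, Junb, and DESeq2 called 0 lower), where 4.76% of all tested genes were higher and 3.55% lower. For these 2 genes the tBHQ wells lay wholly above the NoStim wells. Fos differed by 0.35 ± 0.20 (adjusted p = 0.361) and Klf7 by 0.39 ± 0.21 (adjusted p = 0.302). Junb differed by -0.28 ± 0.12 (adjusted p = 0.139) and Klf4 by 0.53 ± 0.19 (adjusted p = 0.0708). A p above the threshold does not show that such levels were equal, and Klf4 passed in DESeq2 (0.53, adjusted p = 0.0466).

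Halofuginone with LPS differed from NoStim for 9 of the 10 genes, all higher, where 24.1% of all tested genes were higher and 30% lower. Jun (4.21 ± 0.25), Klf6 (2.40 ± 0.11), Junb (2.38 ± 0.12) and Klf7 (2.24 ± 0.21) had the largest differences, each with an adjusted p of 8.49e-18 or less and with the 2 groups apart. Klf2 was the exception (0.50 ± 0.35, adjusted p = 0.230). With the Rn45s share as a covariate, 3 of the 9 no longer passed, namely Fos (0.86, adjusted p = 0.152), Fosl2 (0.80, adjusted p = 0.122) and Klf10 (0.82, adjusted p = 0.221). Fosl2 did not pass with no filter (0.69, adjusted p = 0.0593) or on plate 1 alone (0.71, adjusted p = 0.0944), and Fos did not pass on plate 2 alone (0.91, adjusted p = 0.0593).

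**Figure D4:**
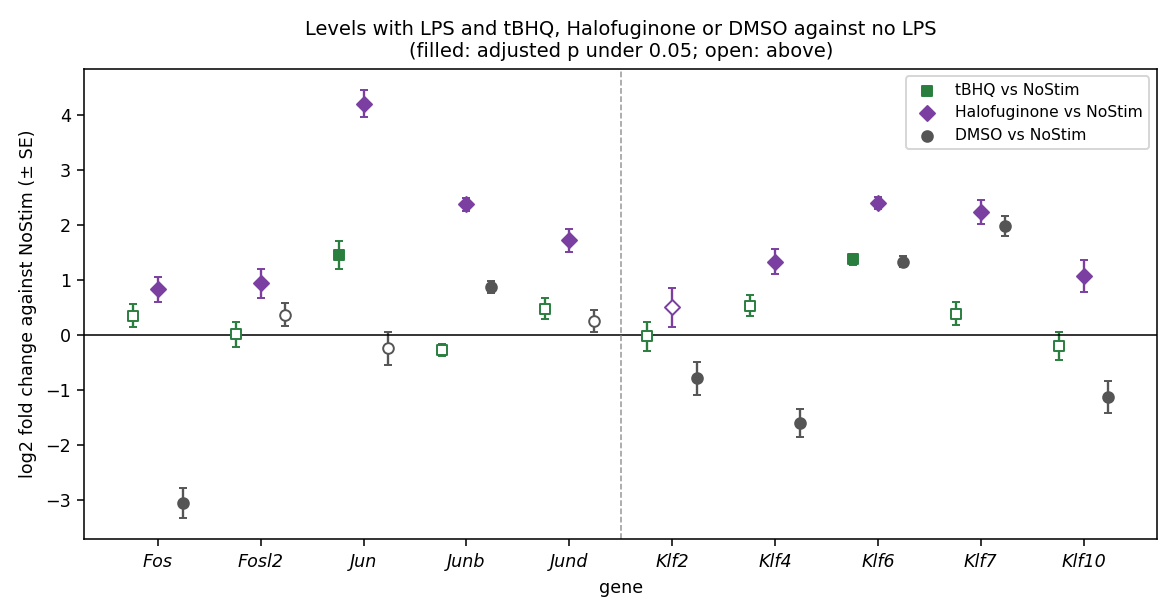
Log2 fold change ± SE against NoStim wells (vertical axis) of each gene (horizontal axis) in wells with LPS and tBHQ (squares), Halofuginone (diamonds) or DMSO (circles), filled where the adjusted p was under 0.05. The tBHQ squares are filled for Jun and Klf6 only, while the DMSO circles reach from -3.06 for Fos to 1.98 for Klf7.

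Dexa and pGE2 each raised Fos and Klf4 and lowered Junb, Klf6 and Klf7 against the shared DMSO wells, and the direct comparison of the 2 compounds shows where they differed. Klf2 was higher with Dexa than with pGE2 (2.04 ± 0.28, adjusted p = 6.99e-10), at 44.5 to 110.7 CPM in Dexa wells, against 9.32 to 28.9 CPM in pGE2 wells. Klf4 was also higher with Dexa (1.55 ± 0.20, adjusted p = 5.95e-11). Fosl2 was lower with Dexa (-0.93 ± 0.17, adjusted p = 6.61e-06), at 69.9 to 109.5 CPM in Dexa wells, against 129 to 237 CPM in pGE2 wells. All 3 pairs of groups were apart, and these 2 genes higher and 1 lower compare with 7.21% and 6.09% of all tested genes. Fos did not pass (-0.58 ± 0.24, adjusted p = 0.0996) in the fit of all libraries, but passed with Tunicamycin plate 2 F left out (-0.60, adjusted p = 0.0122), without the F wells of plate 2 (-0.60, adjusted p = 0.0249) and in the fit of the 2 groups alone (-0.59, adjusted p = 0.00579). Junb, Klf6 and Klf7 differed by -0.12 ± 0.11, 0.24 ± 0.10 and 0.09 ± 0.16, none past the threshold in the fit of all libraries, and Klf6 passed without the F wells of plate 1 (0.32, adjusted p = 0.0357).

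Tunicamycin, which blocks protein glycosylation, and BrefA were compared directly too. Fosl2 (1.42 ± 0.23, adjusted p = 4.17e-07), Klf7 (0.63 ± 0.15, adjusted p = 0.000533) and Junb (0.49 ± 0.11, adjusted p = 0.000244) were higher with Tunicamycin. Without Tunicamycin plate 2 F these differences were 1.48, 0.67 and 0.44 (adjusted p = 1.41e-07, 0.000308 and 0.00187). Klf2 was lower (-0.88 ± 0.29, adjusted p = 0.0204), and its call was lost without the F wells of plate 1 or the G or H wells of plate 2 (-0.72 to -0.80, adjusted p = 0.0601 to 0.102). It passed without Tunicamycin plate 2 F (-0.83, adjusted p = 0.0355), but not without that well, Tunicamycin plate 1 H and BrefA plate 2 H together (-0.83, adjusted p = 0.0573), with no filter on low counts (-0.86, adjusted p = 0.0567) or on plate 1 alone (-0.43, adjusted p = 0.508). Fos also passed, as higher (1.05 ± 0.35, adjusted p = 0.0235), but not without Tunicamycin plate 2 F (0.12, adjusted p = 0.836) nor without the E wells of plate 1 (1.02, adjusted p = 0.0577). Of all tested genes, 9.93% were higher and 6.99% lower in this comparison.

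Likeness between genes was measured as Pearson's r of the mean log2 CPM over the 12 groups, among 4842 other tested genes with a mean of at least 30 CPM in some group. The 12 points share plates, scaling and, for every gene, the same libraries, so r is given as a description. Among the genes most like Fos was Mknk2, a kinase gene of the MAP kinase route to translation (r = 0.93). Jun was most like Egr1, a zinc finger immediate early gene (0.96), and Junb like Abi1 (0.96) and Tapbp, which loads MHC class I (0.96). Klf7 followed Irf1, an interferon regulatory factor (0.98), which ranked first on each plate alone, and the costimulatory receptor gene Cd40 (0.96). The closest genes to Fosl2, Klf2, Klf4 and Klf6 had lower values (0.87 for Etohd2, 0.85 for Cep250, 0.89 for Slc4a1ap and 0.88 for Mgea5). Those to Jund and Klf10 were Emc3 (0.95) and Ppp1r9b (0.94). Most of these places did not hold on each plate alone. The ranks on plates 1 and 2 were 21 and 15 for Etohd2, 2 and 74 for Cep250 and 1 and 545 for Slc4a1ap. They were 16 and 136 for Mgea5, 58 and 160 for Emc3 and 40 and 4 for Ppp1r9b.

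The values without the Halofuginone group differed between genes. Without that group r was 0.85 for Jun and Egr1, 0.72 for Jund and Emc3 and 0.83 for Klf10 and Ppp1r9b, while it was 0.98 for Klf7 and Irf1 and 0.90 for Fos and Mknk2. Between the 10 genes themselves Jun and Jund had r = 0.87 over 12 groups and 0.27 over the 11 without Halofuginone. Junb and Klf7 had 0.75 and 0.96, and Fos and Klf7 had -0.63 and -0.92. Fos and Klf4 stayed at 0.81 and 0.72.

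The related genes are given by list, and their counts are to be read beside the shares of all tested genes. Of all tested genes, 19.5% rose and 16.6% fell with LPS, 17.3% and 19.1% with tBHQ, and 15.3% and 25% with Halofuginone. These shares were 1.95% and 1.61% with Dexa, 9.61% and 7.11% with Torin, and 5.2% and 5.98% with pGE2. Of 9 tested further AP-1 and related bZIP genes (14 listed), 5 rose and 3 fell with LPS, with a median log2 fold change of 0.61, against -0.04 for all genes. Batf2 (2.90 ± 0.41), Maff (2.44 ± 0.50) and Jdp2, a repressor that pairs with Jun proteins (1.93 ± 0.19), rose. With tBHQ 4 rose and 4 fell, among them Batf2 (-2.53 ± 0.41) and Jdp2 (-1.56 ± 0.18) downward. With Halofuginone 4 rose and 3 fell, among them Maff (2.21 ± 0.36) upward. With pGE2 Jdp2 (1.23 ± 0.15) rose and Atf3, a stress-induced factor, fell (-1.58 ± 0.17).

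Of 6 tested further KLF and SP genes (16 listed), Klf9, a known glucocorticoid target, rose with Dexa (2.62 ± 0.36), Torin (2.08 ± 0.39), BrefA (2.04 ± 0.38) and tBHQ (1.58 ± 0.40) and fell with LPS (-1.15 ± 0.41). Klf13 rose with Dexa (0.76 ± 0.14) and Torin (0.64 ± 0.15) and fell with LPS (-0.82 ± 0.14) and Halofuginone (-1.51 ± 0.22). Over the list 2 rose with Dexa and 2 with Torin, and 1 rose and 2 fell with LPS and with Halofuginone. The list's median was -0.33 with LPS, against -0.04 for all genes.

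Of 19 tested genes of the MAP kinase route to AP-1 (31 listed), 8 rose and 2 fell with LPS, 2 rose and 7 fell with tBHQ and 6 rose and 3 fell with Halofuginone. Map3k8, a kinase upstream of ERK in LPS signalling, rose with LPS (2.67 ± 0.28) and fell with BrefA (-2.26 ± 0.27), tBHQ (-2.07 ± 0.26) and Halofuginone (-1.27 ± 0.34). Dusp1, a phosphatase that switches off p38 and JNK, rose with Halofuginone (2.24 ± 0.16), Dexa (1.22 ± 0.16), pGE2 (0.95 ± 0.16) and Torin (0.56 ± 0.16). The list's median was 0.26 with LPS, -0.30 with tBHQ and 0.10 with Halofuginone, against -0.04, 0.04 and -0.20 for all genes.

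Of 12 tested cyclic AMP and CREB genes (15 listed), 3 rose and 1 fell with Halofuginone, where 15.3% and 25% of all genes did, and 2 rose and 1 fell with pGE2, where 5.2% and 5.98% did. With LPS 2 rose and 4 fell, and with tBHQ 3 rose and 4 fell. The list's median was 0.46 with Halofuginone, 0.17 with pGE2, -0.28 with LPS and -0.14 with tBHQ, against -0.20, 0.00, -0.04 and 0.04 for all genes. Nr4a1, an orphan nuclear receptor gene, rose with Halofuginone (5.77 ± 0.49), and Sik1, a kinase that restrains CREB coactivators, rose with tBHQ (3.30 ± 0.45), Dexa (2.68 ± 0.48) and Halofuginone (2.63 ± 0.65). Among 14 tested textbook AP-1 targets (17 listed), 8 rose and 2 fell with LPS, where 19.5% and 16.6% of all genes did. With tBHQ 4 rose and 8 fell (17.3% and 19.1% of all genes), and with Halofuginone 5 rose and 3 fell (15.3% and 25%). The list's median was 1.41 with LPS, -1.26 with tBHQ and -0.02 with Halofuginone, against -0.04, 0.04 and -0.20 for all genes. Il1b, an inflammatory cytokine gene, fell with tBHQ (-3.48 ± 0.15) and with Halofuginone (-2.32 ± 0.15). The mean of Il1b was higher with pGE2, at 5992 CPM against 2486 CPM in DMSO wells. Plau, another of the 14, had a higher mean with Halofuginone, at 294 CPM against 86.5 CPM in DMSO wells. Of 8 textbook KLF targets 2 were tested. With pGE2 1 of the 2 rose and 1 fell, where 5.2% and 5.98% of all genes did. S1pr1, the receptor known from T cells as a Klf2 target, rose (3.52 ± 0.30). Cdkn1a fell, to a mean of 2155 CPM with pGE2 against 6047 CPM in DMSO wells. Klf2 itself did not pass with pGE2 (-0.21 ± 0.34), and its part in these 2 results was not tested.

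All 6 AU-rich element binding genes, whose proteins control the decay of short-lived mRNAs, were tested. With Halofuginone 4 of the 6 rose, where 15.3% of all tested genes did, with a median of 1.09, against -0.20 for all genes. Zfp36l2 and Zfp36l1, which promote such decay, fell with LPS (-3.46 ± 0.28 and -2.79 ± 0.25) and rose with tBHQ (3.59 ± 0.28 and 2.75 ± 0.26). Zfp36 rose with LPS (1.03 ± 0.14) and fell with tBHQ (-0.89 ± 0.14) and BrefA (-0.88 ± 0.14). Among the listed genes said to have risen or fallen, the highest adjusted p was 0.0211, for Klf9 with LPS.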

How the data were processed

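The deposited table holds 1 count per gene symbol and library. The authors aligned reads to mm10 with BWA, per the submitters' processing notes. The sources used here name no BWA version, annotation or strand setting and do not state if molecular identifiers were used to collapse PCR copies. If they were not, counts are not independent molecules, and a low count is less precise than its number implies. Libraries of transcript 3′ ends were built, per the labels, with SCRB-Seq (modified) and Nextera. All counts were checked to be whole numbers, and library totals were 80196 to 379198.

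Genes were kept by filterByExpr, which left 4963. Tests used edgeR 4.0.16 in R 4.3.3, with TMM scaling and 96 libraries in 1 model of group and plate. The tests were robust, two-sided quasi-likelihood F tests with p-values adjusted by Benjamini-Hochberg within a comparison, over all its genes, at a threshold of 0.05. Errors of fold changes are standard errors on the log2 scale. The 11 main comparisons were DMSO against NoStim and each compound against DMSO, and 4 further ones are given with their results.

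The alternatives were RLE scaling, no plate term, other count filters, single plates, summed wells, a replicate block, DESeq2 1.42.0, fits of only the compared groups, left-out wells and the Rn45s share. Likeness used log2 CPM with a prior count of 2. The fits were tested on simulated data. From each list at most the 4 called genes with the largest changes per comparison could be named, and for each of the 10 genes the 3 most alike. The genes, lists and comparisons were chosen with earlier results of these data known. Protein sequences were not used here. Python 3.11.15 with matplotlib 3.10.9 made the figures.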

Additional observations from a re-analysis of the deposited data

Results flagged for a closer look

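Among 120 sets of 8 wells (10 genes in 12 groups), 8 held a well whose gap to the nearest other exceeded Dixon's 95% critical value. Chance gives such a gap in about 1 of 20 sets. Of the 8 wells, 7 were the highest of their group and 1 the lowest. Fos was at 269 CPM in Tunicamycin plate 2 F, against 37.2 CPM in the next well, and at 70.8 CPM in ZVAD plate 2 H, against 38.5 CPM. Junb was at 589 CPM in tBHQ plate 2 E, against 429 CPM in the next. Jund was at 132 CPM in BrefA plate 1 G, against 90.7 CPM, and at 33.9 CPM in Caspase-1 plate 1 E, where the next lowest well had 72.7 CPM. Klf4 was at 89.2 CPM in Torin plate 2 H, against 59.2 CPM. Klf10 was at 96.5 CPM in Torin plate 1 H, against 51.7 CPM, and at 62.1 CPM in Dexa plate 2 F, against 35.6 CPM. The Klf10, Klf4 and Jund wells rest on 9 to 40 counts each.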

How the results depend on the processing

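Of the 43 calls, 26 passed under every alternative that tested them (20 to 22 each), 35 under every one but the single-plate fits, and 0 reversed. The 9 calls lost only on a single plate were Fos, Junb and Klf6 with Dexa, Jun, Klf2 and Klf10 with Torin, Klf4 and Klf7 with pGE2, and Klf2 with BrefA. With the replicate block (plate and well letter), Dexa kept 6 called genes, Torin 6, tBHQ 7, pGE2 6, Halofuginone 8, BrefA 2 and Tunicamycin 1, and it changed no call against DMSO. Of 80 pairs of a compound and a DMSO well with the same letter on a plate, 33 had correlated deviations over 0.1 (mean r = 0.0761), so letters were not taken as pairs. Same-named wells of a group on the 2 plates were positively correlated in 43 of 48 cases (mean r = 0.234), and summing them ended the calls of Klf7 with Dexa (-0.58, adjusted p = 0.0560), Klf2 with tBHQ (0.69, adjusted p = 0.0769) and Klf7 with Tunicamycin (0.53, adjusted p = 0.0801). On plate 1 alone the counts of called genes were 3 for Torin, 1 for BrefA and 3 for Tunicamycin against BrefA. On plate 2 alone they were 2 for Dexa, 3 for Torin, 3 for pGE2, 0 for Tunicamycin and 2 for Tunicamycin against BrefA. In fits of the compared groups alone, which test fewer of these genes, they were 3 for Torin, 1 for Caspase-1, 1 for BrefA, 0 for Tunicamycin and 3 for Tunicamycin against BrefA. Tunicamycin had 0 with no filter and 0 with same-named wells summed, and 2 with 3 wells left out. Leaving out 1 well letter of a plate gave 0 to 1 for Tunicamycin, 7 to 9 for Halofuginone, 6 to 7 for LPS and for tBHQ, and 5 to 6 for Dexa and for pGE2. With RLE scaling the median of all genes was -0.19 with LPS and 0.19 with tBHQ, against -0.04 and 0.04 with TMM, and 38.4% and 61.9% of all calls were higher, against 54.1% and 47.5%. With Caspase-1 these shares were 59.3% and 47.9%. Klf2, Klf4 and Klf10 had counts as low as 2, 2 and 1 in DMSO wells.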
